A study of Homo sapiens with 6 samples.

Results

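The genes examined here are 42 members of the TGF-beta and BMP signalling pathways, taken by gene symbol from a table of read counts for 22989 genes, and all 42 were listed in it. They cover secreted ligands, their receptors, the Smad proteins, inhibitors of the pathway and a few of its target genes. RNA-seq compared 3 libraries labelled LINC00115 KD with 3 libraries labelled WT, all described as MDA-MB-231 PTX-resistant BCSC. The parental line came from a human breast tumour without estrogen, progesterone or HER2 receptors, PTX is paclitaxel, and the BCSC are its stem-like cells, which the study sorted for high aldehyde dehydrogenase activity. Per the study's methods, LINC00115, a long non-coding RNA, was knocked down with short hairpin RNAs and the cells were selected with puromycin. The KD libraries are described as sh115-1, sh115-2 and sh115-3. In the text of the study, sh115-1 and sh115-2 are different hairpins, and the legend of its plot of this comparison names the hairpin of the KD cells as sh115-2. They are treated here as 3 replicates because their titles number them so. The labels give the controls no construct, so that hairpin, vector and the loss of LINC00115 cannot be told apart in this comparison. The legend that holds this plot speaks of 3 independent experiments, without tying the libraries to them. No source names separate cultures for the 3 libraries of a group, and p-values therefore measure only the spread between these libraries.

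The libraries held between 36979221 and 38799331 counts. In a library, 3 counts, the limit that a count of 0 allows, equal at most 0.0817 normalized CPM (reads of a gene as a share of the scaled library total), and this limit covers counting error only. The table has 0 genes named LINC00115, so the knockdown could not be checked in it. Its symbols are written as mouse genes are, with 4648 Gm and 1135 Rik names, while the labels name a human line. Gm and Rik names belong to mouse gene models, so the reads were counted on a mouse annotation. The human builds that the sources name do not account for this. Which species the RNA came from is not settled by these sources, so the values cannot be taken as those of the human genes. The symbols are printed as the table gives them. Of 12 genes chosen to check the labelled line, Vim, Cd44, Axl, Krt8 and Krt18 were abundant in both groups (129 to 3736 normalized CPM as group means). Epcam, Pgr and Krt19 had at most 7 counts in any library. Egfr averaged 5.75 normalized CPM in WT and 9.31 in KD, and Erbb2, the gene of HER2, 16.97 and 27.55. The 12 genes summed to 5660 to 5720 normalized CPM in WT and 6470 to 6590 in KD (8 higher in every KD library and 1 lower). Of these 12, 2 were called higher in KD: Cdh1 had 1 to 3 counts in WT libraries and 22 to 31 in KD, through which alone it entered the test, and Esr1, the estrogen receptor, 24 to 29 and 82 to 105. The stem cell genes Sox2, Prom1 and Aldh1a3 had at most 4 counts in any library, and Aldh1a1 averaged 0.327 normalized CPM in WT and 1.16 in KD. Markers of lung epithelium and kidney tubule were present in the KD libraries. Summed over 12 lung genes, the level was 1.73 to 2.22 normalized CPM in WT and 75.9 to 87.3 in KD, with 12 of 12 higher in every KD library, and 6 of them, among them Scgb1a1, Sftpc, Sftpb and Sftpa1, at 0 in every WT library. Kidney genes summed to 16.8 to 19.6 in WT and 42.3 to 46.2 in KD (9 of 12 higher in every KD library and 1 lower, with 6 at 0 in every WT library), and leukocyte genes to 72.2 to 86.1 and 144 to 160 (4 of 12 higher and 1 lower). Endothelial genes summed to 1.59 to 1.91 in WT and 58.2 to 61.2 in KD, of which Cdh5 alone made 57.8 ± 1.45 (SD, n = 3). Of 10 endothelial genes, 4 were higher and 1, Tie1, lower in every KD library, and Tie1 was called lower (log2 fold change −1.61). Fibroblast genes summed to 175 to 193 in WT and 77.2 to 79.4 in KD, of which Pdgfra made 178 ± 9.92 and 74.5 ± 1.39 (of 10 fibroblast genes, 3 were lower and 2, Acta2 and Postn, higher in every KD library).

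TGF-beta is secreted in a latent complex that latent TGF-beta binding proteins anchor to the matrix. Once released, TGF-beta and the activins bind pairs of type I and type II receptors that phosphorylate Smad2 and Smad3, and BMPs act in the same way through Smad1, Smad5 and Smad9. The phosphorylated Smads join Smad4 and enter the nucleus, where BMP signals typically raise the Id genes and TGF-beta raises matrix and adhesion genes. In breast cancer cells TGF-beta is known both for restraining growth and for promoting invasion and epithelial-mesenchymal transition.

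Of the 42 members, 39 passed edgeR's expression filter and were tested, and a gene was called where the adjusted p was below 0.05 and the means differed more than 2-fold, as the study's methods set it. KD libraries had 6 members called higher (Tgfb2, Inhba, Inhbb, Fstl1, Fstl3 and Tgfbi) and 3 called lower (Id2, Tgfb3 and Id4). These were 15.4% and 7.69% of the members tested, beside 10.2% higher and 9.98% lower among all 13497 genes tested, and 23.1% of the members against 20.2% of all genes in either direction. Inhbb and Fstl1 entered the test only through the KD libraries, where they are higher, since at most 1 of their WT libraries held 10 counts. Requiring 10 counts in every library left 37 members, of which 4 were called higher and 3 lower, beside 903 higher and 919 lower of 11966 genes. What follows describes which members changed, not an excess of them. Without the threshold on the fold, 19 members were higher and 12 lower, 79.5% of those tested, beside 73.4% of all genes (36.7% higher and 36.7% lower). Here "rose" and "fell" stand for passing 0.05 after adjustment (edgeR's quasi-likelihood test), which most genes reached at this depth, and "called" for both thresholds. Groups did not overlap for 30 of 39 members (75.6% of all genes). The median log2 fold change of the members tested was 0.15, with 22 above 0 and 17 below, beside a median of −0.0061 for all genes, and it was 0.063 where 10 counts were required in every library.

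**Figure D1:**
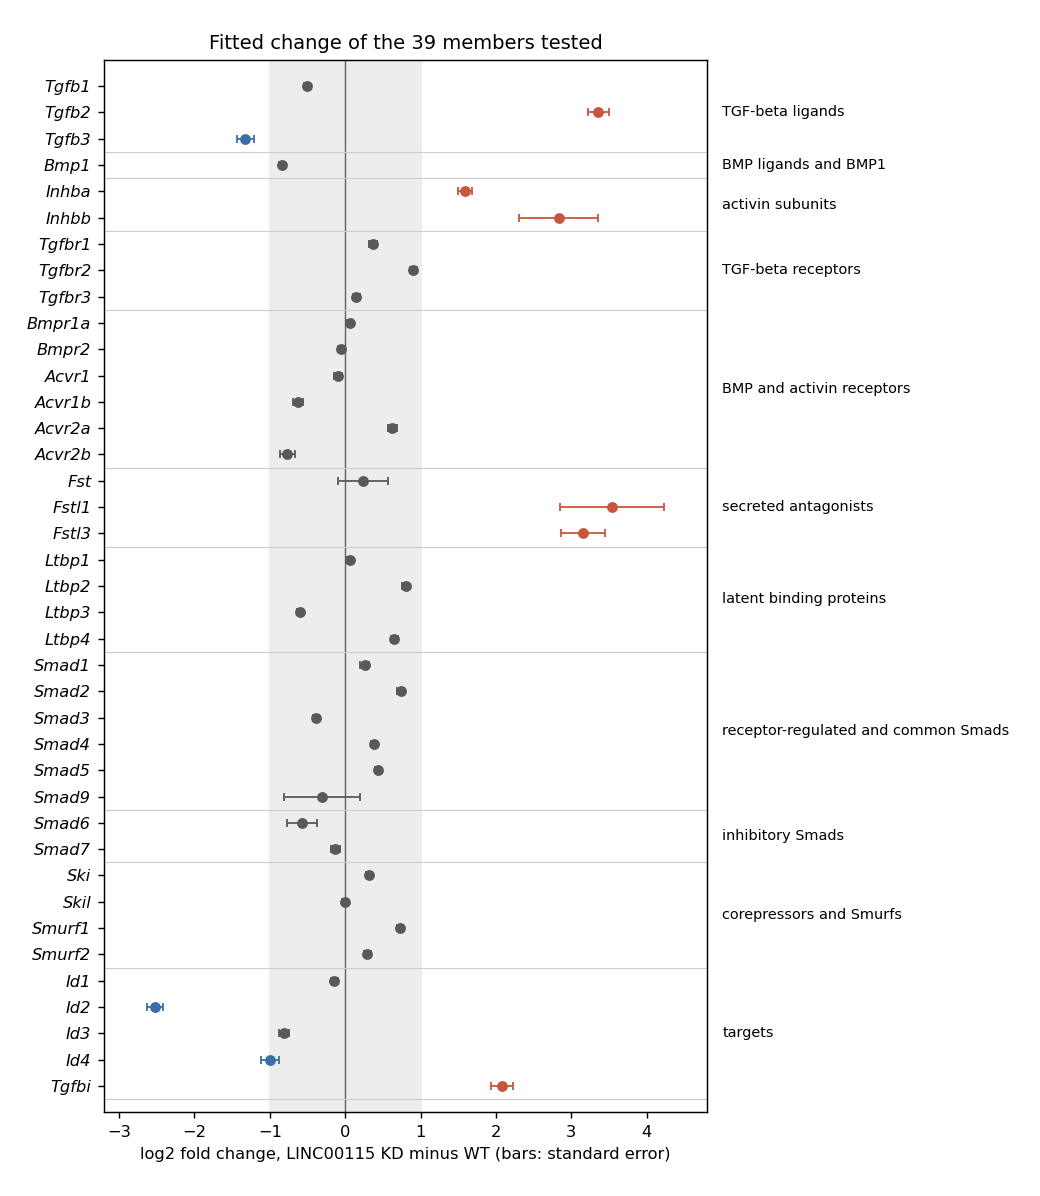
Fitted log2 fold change (x axis, KD minus WT, bars are standard errors) of each of the 39 members tested, grouped by role. The grey band spans a fold change of 2 either way, blue points are called lower and red points called higher. The 6 called higher lie among ligands, secreted antagonists and targets, and every receptor and Smad lies within the band.

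Among the TGF-beta ligands, the 3 genes moved apart. Tgfb2 had 2.04, 1.64 and 2.46 normalized CPM in the WT libraries and 21.7, 18.2 and 23.0 in the KD libraries. Every KD library lay above every WT library, and the mean rose 10.2-fold, from 2.05 ± 0.409 to 21.0 ± 2.52 (SD, n = 3 each). On the log2 scale this was 3.35, with a standard error (SE) of 0.14 and an adjusted p of 2.50e-21. Tgfb3 went the other way, with 16.3, 14.7 and 18.3 normalized CPM in WT and 6.18, 6.92 and 6.50 in KD. Its groups were also separate, and it fell 2.51-fold (log2 fold change −1.33, SE 0.11, adjusted p = 1.08e-12). Tgfb1 fell within a fold of 2, from 173 ± 5.27 to 122 ± 4.54 normalized CPM (log2 fold change −0.50, SE 0.04, adjusted p = 2.45e-13). As a share of the reads counted on the 3 ligand genes, Tgfb2 made 0.88% to 1.29% in WT libraries and 12.8% to 14.9% in KD libraries, Tgfb3 7.86% to 9.59% and 4.07% to 4.87%, and Tgfb1 89.1% to 91.3% and 81.0% to 82.3%. These are shares of reads, not of transcripts, because gene lengths were not used. Tgfb1 therefore remained the gene with most of the family's reads in every library. Each of these shares separated the groups (exact permutation test, two-sided, p = 0.1, the smallest that 3 against 3 allows, 0.109 after adjustment over the 24 family shares computed).

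Both activin subunits were called higher. Inhba, the beta A chain of activin and inhibin, had 9.87, 8.16 and 9.05 normalized CPM in WT and 26.1, 27.4 and 27.9 in KD. It was 3.00-fold higher within narrow groups, with a log2 fold change of 1.59 (SE 0.09, adjusted p = 3.26e-17). Inhbb, the beta B chain, had few reads, with 16, 1 and 7 counts in WT and 53, 56 and 64 in KD. Every KD library was above every WT library, with a fitted log2 fold change of 2.83 (SE 0.53, adjusted p = 1.35e-05), a test it entered only through the KD libraries. The ratio of its summed counts was 7.2 with a counting interval of 4.68 to 11.5 (95%, exact), which covers counting error only and not the scatter of the WT libraries. The fitted change depended on single WT libraries, at 3.81 without WT replicate 1 and 2.31 without WT replicate 2. Inhba made 95.9% to 99.7% of the reads on both subunits in WT libraries and 94.3% to 95% in KD libraries.

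Of the BMP members, Bmp2 and Bmp4 were not detectable at this depth, with at most 2 and 3 counts in any library of either group. Bmp1 is named with the BMPs but is a metalloprotease that processes procollagen and releases latent complexes. It fell from 179 ± 7.25 to 100.3 ± 2.52 normalized CPM (log2 fold change −0.84, SE 0.04, adjusted p = 3.94e-19). Grem1, a BMP antagonist, had 1 count in 1 WT library and 0 elsewhere.

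The other secreted antagonists split. Fst, follistatin, which binds activin, had 1.19, 1.35 and 1.77 normalized CPM in WT and 2.02, 1.23 and 1.84 in KD, overlapping groups with a log2 fold change of 0.24 (SE 0.33, adjusted p = 0.525). Fstl3, a follistatin-like inhibitor of activin, had 0.398, 0.98 and 0.397 in WT and 5.74, 4.74 and 5.40 in KD. No KD library came near the WT range, and Fstl3 rose with a log2 fold change of 3.15 (SE 0.29, adjusted p = 6.96e-12). Fstl1, a secreted follistatin-like glycoprotein, had only 2, 4 and 1 counts in WT and 15, 32 and 38 in KD, and KD replicate 1 had fewer than the other two. The groups were separate, with a fitted log2 fold change of 3.54 (SE 0.69, adjusted p = 2.58e-05), again in a test entered only through the KD libraries. With a library left out in turn it ranged from 3.19 to 4.13, the highest without WT replicate 2. The ratio of summed counts was 12.1 with a counting interval of 5.64 to 31.1 (95%, exact, counting error only).

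For the members that were low in WT libraries and called higher in KD (Tgfb2, Tgfbi, Fstl1, Fstl3 and Inhbb), the level in KD was 0.753 to 21.0 normalized CPM as a group mean. The same KD libraries held the lung gene Scgb1a1 at 43.6 ± 4.68 and the kidney gene Slc34a1 at 3.60 ± 0.583 normalized CPM, with at most 1 count of either in any WT library. The part of such RNA in these differences was not tested. In bulk RNA, fewer cells of a type and less RNA per cell cannot be told apart.

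**Figure D2:**
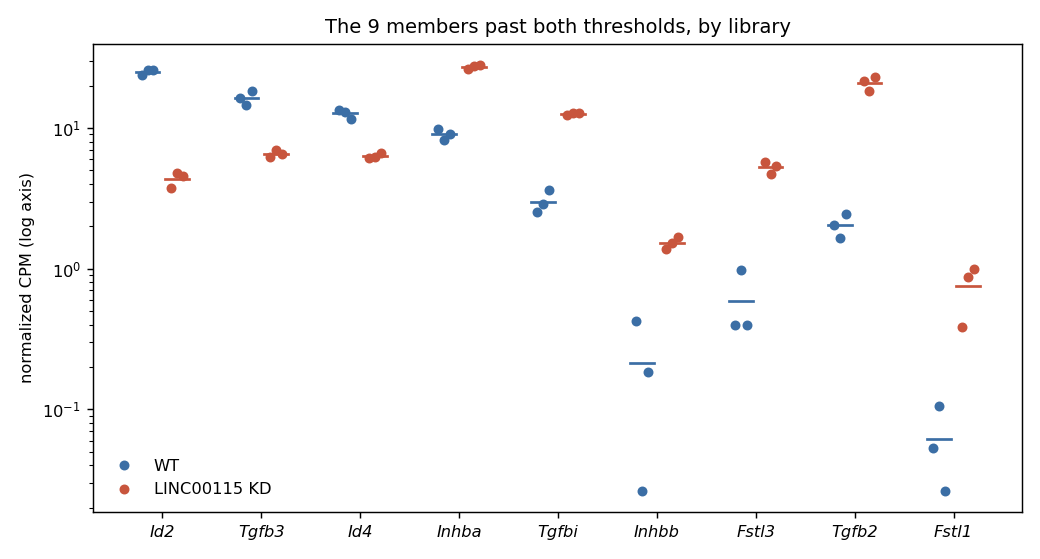
Normalized CPM (log axis) of the 9 called members in each of the 6 libraries, with points for libraries and lines for group means. Groups are separate for all 9, and WT libraries scatter most for Inhbb, from 0.0265 to 0.425, and for Fstl1, from 0.0265 to 0.106.

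The TGF-beta receptors rose together, all within a fold of 2. Tgfbr2, the type II receptor that binds the ligand first, had 92.6, 94.3 and 86.7 normalized CPM in WT and 170, 174 and 168 in KD (log2 fold change 0.90, SE 0.04, adjusted p = 6.61e-20). That is 1.87-fold, with a gap between the groups far wider than either group. Tgfbr1, the type I kinase, rose by 0.37 on the log2 scale (adjusted p = 8.13e-08) and Tgfbr3, the coreceptor betaglycan, by 0.15 (adjusted p = 0.00367). Among reads on the 3 receptor genes, the share of Tgfbr2 went from 34.2% to 35.3% in WT up to 45% to 46.3% in KD (exact permutation p = 0.1). Receptors for BMPs and activins moved both ways. Type I receptors of BMPs among the members did not pass the threshold: Bmpr1a had a log2 fold change of 0.06 (adjusted p = 0.209) and Acvr1 of −0.09 (adjusted p = 0.114, but 0.022 with upper quartile scaling), each with overlapping groups. The same held for the type II receptor Bmpr2 (−0.05, adjusted p = 0.305). With SEs of 0.04 to 0.05, changes as large as that of Tgfbr2 lie far outside what these 3 estimates allow. Of the activin receptors, Acvr1b, the type I kinase, fell from 34.3 ± 0.988 to 22.2 ± 0.79 normalized CPM (log2 fold change −0.63, adjusted p = 7.60e-10). Acvr2b fell from 17.2 ± 1.67 to 10.1 ± 0.825 (−0.77, adjusted p = 3.83e-08), whereas its paralog Acvr2a rose from 32.2 ± 1.67 to 49.5 ± 0.528 (0.62, adjusted p = 3.63e-11). The type II activin receptors therefore changed in opposite directions.

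Latent TGF-beta binding proteins were also redistributed. Ltbp2 had 83.6, 95.4 and 94.6 normalized CPM in WT and 153, 166 and 158 in KD, a log2 fold change of 0.80 (adjusted p = 4.56e-17). Ltbp4 rose from 61.3 ± 0.996 to 96.4 ± 2.06 (0.65, adjusted p = 1.10e-14) and Ltbp3 fell from 202 ± 1.05 to 133 ± 6.37 (−0.60, adjusted p = 9.84e-16). Ltbp1, with overlapping groups, had a log2 fold change of 0.06 (SE 0.04, adjusted p = 0.116, but 0.0293 without KD replicate 1). By reads, Ltbp3 held 31.8% to 32.7% of the family in WT and 18.6% to 20.6% in KD, Ltbp2 13.6% to 15% and 23.0% to 24.4%, and Ltbp1 kept 41.4% to 43.8% in all 6 libraries.

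**Figure D3:**
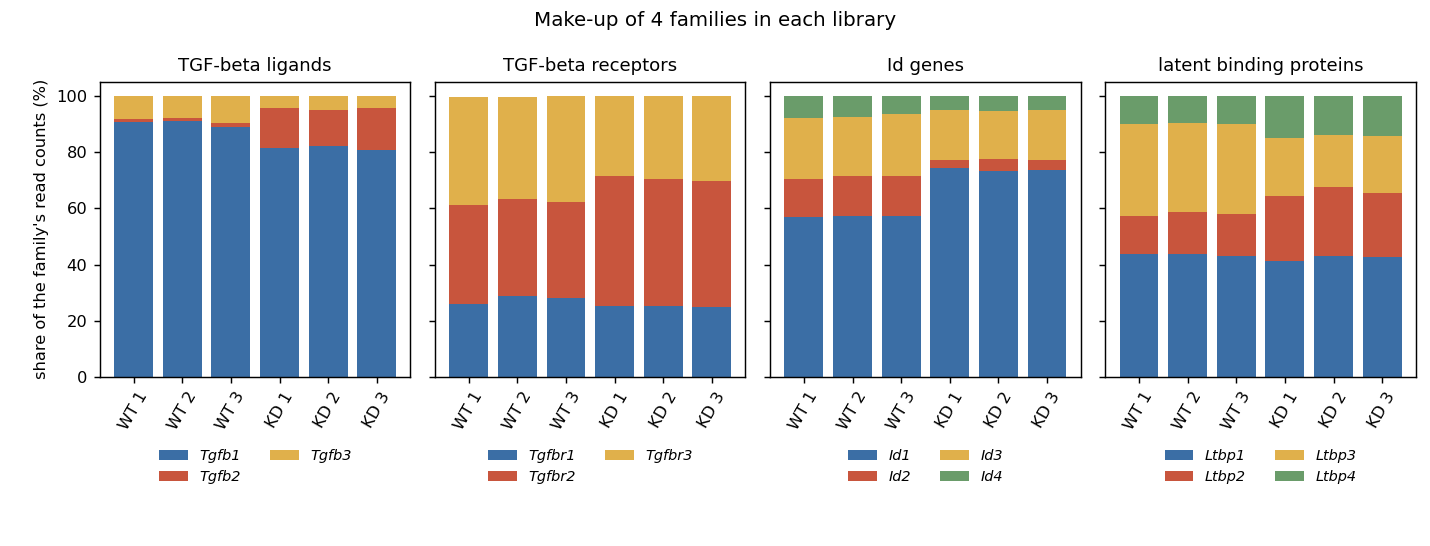
Share of each gene (y axis, percent) in the reads counted on its family, for 3 WT and 3 KD libraries. Tgfb2, Tgfbr2, Id1 and Ltbp2 took larger shares in every KD library, and Id2 and Ltbp3 smaller ones.

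Of the Smads that carry the signal, none was called, and most rose a little. Smad2 had 58.1, 61.2 and 59.2 normalized CPM in WT and 97.0, 98.8 and 102 in KD, the largest change among the Smads that rose (log2 fold change 0.74, SE 0.05, adjusted p = 5.35e-16). Smad3, which shares its receptors, fell from 222 ± 9.39 to 170 ± 4.34 (−0.38, adjusted p = 5.67e-11). In reads on the 8 Smad genes, Smad3 went from 35.3% to 36.7% down to 24.3% to 24.8%, and Smad2 from 9.17% to 9.93% up to 14.3% to 14.5%. Smad4, the common partner, rose by 0.38 (adjusted p = 1.07e-10), and so did Smad5 by 0.43 (adjusted p = 3.05e-12) and Smad1 by 0.26 (adjusted p = 0.000305) on the log2 scale. Smad9 had 14 to 27 counts per library and overlapping groups (−0.31, SE 0.50, adjusted p = 0.584). The inhibitory Smads, which block receptors and are themselves induced by the pathway, were not higher. Smad6 had 5.63, 5.85 and 3.81 normalized CPM in WT and 3.41, 4.17 and 2.71 in KD, with overlapping groups and a log2 fold change of −0.57 (adjusted p = 0.0111). That p rested on single libraries, at 0.0665 without WT replicate 2 and 0.0807 without KD replicate 3. Smad7 was at −0.13 (adjusted p = 0.0517), with adjusted p from 0.0128 to 0.272 over the 13 alternative fits, on either side of the threshold.

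Of the member corepressors and ubiquitin ligases that dampen Smad signals, Ski, Smurf1 and Smurf2 rose. Smurf1, a ligase that targets Smads and receptors for degradation, had 151, 156 and 153 normalized CPM in WT and 258, 245 and 257 in KD (log2 fold change 0.73, SE 0.04, adjusted p = 8.38e-19). Smurf2 rose by 0.29 (adjusted p = 4.09e-07) and the corepressor Ski by 0.32 (adjusted p = 1.36e-08). Its relative Skil, itself a target of TGF-beta, had 94.1 ± 3.65 normalized CPM in WT and 93.9 ± 1.15 in KD, a log2 fold change of −0.0042 (SE 0.04, adjusted p = 0.936).

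The Id genes encode inhibitors of basic helix-loop-helix factors and are typical targets of BMP signals, and all 4 were lower in the KD libraries, by very different amounts. Id2 had 23.7, 25.7 and 25.8 normalized CPM in WT and 3.72, 4.79 and 4.53 in KD. With no overlap it fell 5.76-fold, the largest decrease among the members tested (log2 fold change −2.53, SE 0.11, adjusted p = 6.71e-21). Id4 had 13.5, 13.1 and 11.6 in WT and 6.10, 6.26 and 6.69 in KD, a log2 fold change of −1.0026 (SE 0.12, adjusted p = 2.94e-09). It lay so close to a fold of 2 that it was not called in 6 of 13 alternative fits, with values from −1.06 to −0.96. Without WT replicate 1 it was at −0.96, without WT replicate 2 at −0.98, without KD replicate 1 at −0.97 and without KD replicate 2 at −0.98. Id3 fell within a fold of 2, from 38.6 ± 1.40 to 21.9 ± 1.8 (−0.81, SE 0.07, adjusted p = 2.70e-12). Id1 had 98.8, 103 and 104 normalized CPM in WT and 91.4, 86.8 and 98.1 in KD, a small decrease (−0.15, SE 0.05, adjusted p = 0.00584) that did not pass the threshold without KD replicate 2 (adjusted p = 0.0901). The lowest WT and highest KD library of Id1 were thus almost level. By reads, Id1 went from 56.9% to 57.3% of the family in WT up to 73.5% to 74.3% in KD, and Id2 from 13.7% to 14.3% down to 3.03% to 4.06%.

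Because the Id genes all moved in the same direction, the human promoters of their namesakes are shown, from RefSeq on GRCh38.p14, with 250 bases before and 50 after the start of the gene, read 5′ to 3′ on the gene's strand. Of the 42 members, 39 had an entry in that table by symbol. These are the human sequences, while the count table carries mouse gene names, so they may not be those of the genes counted. Capitals mark matches, on either strand, to the letters CAGAC, the core of the Smad-binding CAGA box, and ACGTG, the core bound by hypoxia-inducible factors, which the study followed. Another motif searched on both strands, GGCGCC of BMP-responsive elements, is held by 19.2% of the 35116 promoters in the table and was in none of the 4 windows. CAGAC is held by 45.3% and ACGTG by 21.4% of them. Elements further upstream than 250 bases were not searched, so a motif missing from these windows may still lie outside them. The ID1 window lies at chr20:31605039-31605338 on the + strand and holds 1 ACGTG, read here on the opposite strand as CACGT. ID2 lies at chr2:8681806-8682105 on the + strand, with 1 ACGTG. ID3 lies at chr1:23559452-23559751 on the − strand and ID4 at chr6:19837120-19837419 on the + strand, each with 1 CAGAC. No motif was common to all 4, and the 2 cores fell in different pairs.
ID1: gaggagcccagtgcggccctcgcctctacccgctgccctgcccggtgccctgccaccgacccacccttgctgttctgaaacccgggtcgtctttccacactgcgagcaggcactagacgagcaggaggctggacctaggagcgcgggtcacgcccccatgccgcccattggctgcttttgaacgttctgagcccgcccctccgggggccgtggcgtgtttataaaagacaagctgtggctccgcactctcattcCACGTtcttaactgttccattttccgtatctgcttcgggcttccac
ID2: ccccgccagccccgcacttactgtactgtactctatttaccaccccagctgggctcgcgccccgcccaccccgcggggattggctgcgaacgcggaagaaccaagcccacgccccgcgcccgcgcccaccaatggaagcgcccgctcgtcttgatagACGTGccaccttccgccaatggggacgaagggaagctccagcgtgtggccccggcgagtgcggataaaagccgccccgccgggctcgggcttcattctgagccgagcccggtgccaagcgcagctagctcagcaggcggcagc
ID3: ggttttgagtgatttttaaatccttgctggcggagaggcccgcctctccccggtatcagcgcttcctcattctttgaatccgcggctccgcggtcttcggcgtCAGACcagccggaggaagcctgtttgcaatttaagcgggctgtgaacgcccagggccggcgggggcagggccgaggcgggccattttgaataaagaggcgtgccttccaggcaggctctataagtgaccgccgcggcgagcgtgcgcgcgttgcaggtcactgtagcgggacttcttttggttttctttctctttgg
ID4: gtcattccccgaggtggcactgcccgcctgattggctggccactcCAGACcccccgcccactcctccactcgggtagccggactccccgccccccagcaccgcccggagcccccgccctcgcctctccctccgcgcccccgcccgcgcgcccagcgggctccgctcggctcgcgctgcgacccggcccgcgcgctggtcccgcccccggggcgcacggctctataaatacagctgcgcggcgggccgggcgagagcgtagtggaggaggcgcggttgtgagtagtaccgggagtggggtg

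Tgfbi, a secreted matrix protein named for its induction by TGF-beta, went against the Id genes. It had 2.52, 2.86 and 3.60 normalized CPM in WT and 12.4, 12.8 and 12.8 in KD. Every KD library was above every WT library, with a mean 4.23-fold higher (log2 fold change 2.08, SE 0.14, adjusted p = 5.98e-15).

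A further 133 symbols of pathway genes were listed, of which 119 were in the table and 81 were tested. Ctgf and Cyr61, among those absent, are older names of Ccn2 and Ccn1, which were listed too and tested. Of these, 10 were called higher and 9 lower (12.3% and 11.1%, beside 10.2% and 9.98% of all genes), with a median log2 fold change of 0.05. Requiring 10 counts in every library left 5 called higher and 7 lower, with genes such as Timp3 and Acta2 left out that had entered the test only through the KD libraries, and Hey1 and Gata2 that had low counts in KD. Of 23 transcriptional targets 6 were called higher and 5 lower, and of 32 Smad partners and regulators 1 was called, named after its value was seen: Pmepa1, a feedback inhibitor of TGF-beta signals (log2 fold change 1.01, SE 0.08, adjusted p = 1.36e-13). Pmepa1 lay close to the fold threshold of 2. With upper quartile scaling or library size alone, 8 other pathway genes were called higher and 9 lower. Without KD replicate 1, 8 were called higher and 8 lower.

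Ccn2, connective tissue growth factor, had 6.05, 6.17 and 6.75 normalized CPM in WT and 214, 204 and 214 in KD. It was 33.4-fold higher with little spread, a log2 fold change of 5.06 (SE 0.06, adjusted p = 1.59e-37), more than any member. Timp3, a metalloproteinase inhibitor, had 1, 7 and 9 counts in WT and 135, 188 and 206 in KD, so it too entered the test only through the KD libraries (fitted log2 fold change 4.93). Fbn1, the fibrillin that tethers latent complexes, rose by 2.94, Chrd, the BMP antagonist chordin, by 2.14, and Tgm2, a transglutaminase, by 1.31 on the log2 scale. Other targets and regulators fell: Mmp9, a protease able to release latent TGF-beta, from 149 ± 1.39 to 25.3 ± 1.25 normalized CPM (log2 fold change −2.55), the cell cycle inhibitor Cdkn1a from 257 ± 20.9 to 65.9 ± 2.49 (−1.97), Nedd9, a docking protein of focal adhesions, by 1.44, the repressor Bhlhe40 by 1.34 and Crim1, which binds BMPs at the cell surface, by 1.28. Target genes of the pathway thus went both ways, and Snai1, a repressor of epithelial genes that TGF-beta induces, chosen after its value was seen, fell within a fold of 2 (−0.85, adjusted p = 7.14e-14).

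**Figure D4:**
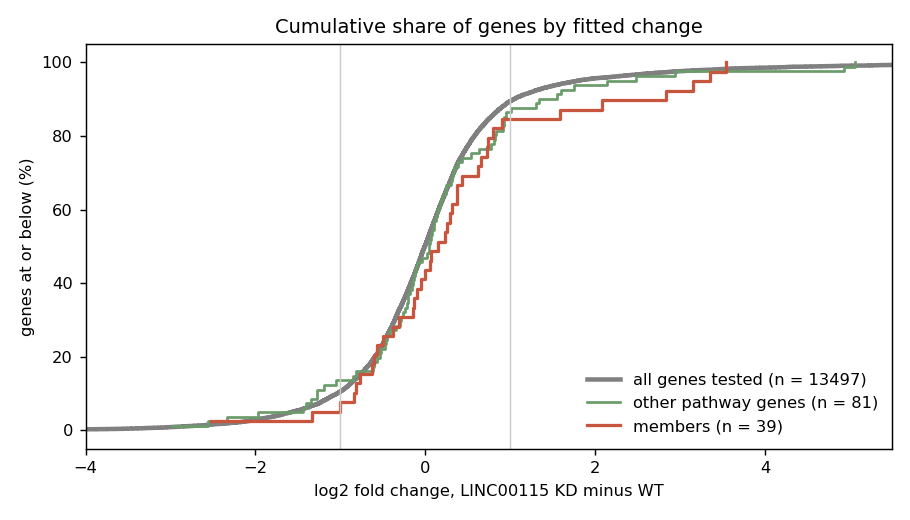
Cumulative percentage of genes (y axis) at or below each log2 fold change (x axis, KD minus WT) for the 39 members, the 81 other pathway genes and all 13497 genes tested, with lines at a fold change of 2. Of the 39 members, 15.4% were called higher (among them Inhbb and Fstl1, tested only through the KD libraries) and 7.69% lower. Of all genes, 10.2% were called higher and 9.98% lower. The members end at 3.54 on the right, where other genes lie further out (Scgb1a1 at 13.69).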

How the data were processed

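RNA-seq of 3 LINC00115 KD and 3 WT libraries was analysed. The authors trimmed adapters, mapped reads with HISAT2 to hg19 per their methods and deposited 1 table of raw counts per gene. The submitters' processing notes list hg38, HISAT2, featureCounts and DESeq2. Both builds are human, and neither accounts for the mouse gene names of the table. Annotation and strand setting are not given in the sources used here, so reads of overlapping genes and of close paralogs may be split in unknown ways. Columns were matched to samples by their names, and 0 columns were left unused.

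The test was edgeR's quasi-likelihood F test (edgeR 4.0.16, R 4.3.3) on the counts scaled by TMM (factors 0.9901 to 1.0143). A filterByExpr filter (at least 10 counts, total of at least 15) left 13497 genes, over which p-values were adjusted by Benjamini-Hochberg. For a standard error, the size of the log2 change was divided by the root of F. The biological coefficient of variation was 5.21%. Libraries of a group differed by 3.89 to 7.65 times sampling noise (chi-square over its degrees of freedom), and none was a copy. Normalized CPM use TMM-scaled totals. Shares within families were compared by an exact permutation test. The method was tested on simulated counts (seed 11).

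The members and lists were chosen with earlier results of these data known. All members are named. Of the other lists, the rule named the 10 largest changes among called genes that reached 100 counts in each library of the group where they were higher, and genes outside it were chosen after their values were seen. Alternatives were other scalings and filters, left-out libraries, a replicate block, DESeq2 1.42.0 and no fold threshold.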

Additional observations from a re-analysis of the deposited data

How the results depend on the processing

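The 9 calls among members held in every alternative except Id4, whose values stand with its result, and except Inhbb and Fstl1 with at least 10 counts in every sample, a filter that leaves both out. Of 505 values of single members over these fits, 493 kept their direction and their call at both thresholds together. Skil, near 0, changed sign with DESeq2's size factors (0.0025), with DESeq2's Wald test (0.0037) and with libraries left out (−0.0361 to 0.0168). The members' median log2 fold change stayed above 0, at 0.106 with upper quartile scaling, 0.192 without a low-count filter, 0.063 under the filter of 10 counts per sample, 0.201 by DESeq2 and 0.10 to 0.159 with a library left out. The filters change which members are counted (37 to 42 of 42), and the cause of the other shifts was not tested. Without a fold threshold, 12 members were lower and 19 higher, and 30 and 32 of the other pathway genes. Under the filter of 10 counts per sample, 5 other pathway genes were called higher and 7 lower, beside 903 and 919 of all 11966 genes. With the replicate number as a replicate block, 3 members were lower and 6 higher, as without it, with the members' median at 0.147. Same-numbered libraries did not deviate together (correlations −0.0178 to 0.0041, beside −0.0164 to 0.0345 for the other pairs of a WT and a KD library). No pairing by number was seen, which does not show whether libraries were prepared in pairs. At this depth, members with at most 78 counts in any library (Smad9, Fst, Inhbb, Fstl1) have standard errors of 0.33 to 0.69. A standard error is not a limit of detection, and changes well above these sizes could also be missed.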
